A study of Mus musculus with 22 samples.

Results

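The genes described here encode 10 of the GTPases that interferon-gamma induces in mouse cells: Igtp, Irgm1, Irgm2, Iigp1, Ifi47, Tgtp1, Gbp2, Gbp3, Gbp6 and Gbp7. They were chosen by name, as the entries of the deposited count table whose Ensembl ID carries one of these symbols in GRCm38. All 10 were found among the 15448 genes of the table, and all 10 were among the 14785 genes tested. Their levels were followed in the livers of mice with cancer cachexia, with and without a bile acid treatment.

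Interferon-gamma, released mainly by T cells and natural killer cells, binds the receptor made of Ifngr1 and Ifngr2, and the kinases Jak1 and Jak2 then pass the signal on. It reaches GAS elements in DNA and switches on target genes, among them Irf1 and Irf8, whose products act through ISRE elements. The immunity-related GTPases (IRG) and the guanylate-binding proteins (GBP) are among the most strongly induced targets: they gather on vacuoles that hold bacteria or parasites and damage them. The IRGM class (Igtp, Irgm1 and Irgm2) sits on the membranes of the cell's own organelles and keeps the effector class (Iigp1, Ifi47 and Tgtp1) from acting there. In the liver, hepatocytes, macrophages and endothelial cells all respond to interferon-gamma.

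Liver polyA RNA of 22 wild-type male CD2F1 mice was sequenced. The C26-TDCA group (n = 8) carried C26 cells, a mouse colon carcinoma line that brings on cachexia, and was given 10 mg/kg of taurodeoxycholic acid (TDCA), a bile acid, into the peritoneum every day. The C26 group (n = 8) carried C26 cells and is described as untreated, and the CT group (n = 6) was sham-injected and is labelled as vehicle. The labels give no age, and they do not say whether C26 mice were given injections in place of TDCA, so that TDCA and the injection cannot be told apart.

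Depth was 20.5 to 28.3 M counts in the C26-TDCA libraries, 17.5 to 28.1 M in the C26 libraries and 16.5 to 25.3 M in the CT libraries, and 3 counts were 0.11 to 0.18 counts per 1e6 counts (CPM). All 12 hepatocyte markers were in the table, and their summed level was 34046 to 45649 CPM in C26-TDCA livers, 33011 to 45750 CPM in C26 livers and 62644 to 72959 CPM in CT livers. The list went both ways, with 5 higher and 6 lower in C26 than in CT livers (median log2 fold change -0.15): Alb, which weighs most in the sum, averaged 15181 ± 2840 CPM in C26 livers and 42189 ± 2760 CPM in CT livers, while Ahsg, Hnf4a, Tat and Asgr2 were among those that rose. Kupffer cell and macrophage markers summed to 591 to 779 CPM in C26-TDCA livers, 488 to 747 CPM in C26 livers and 298 to 345 CPM in CT livers. Markers of monocytes and neutrophils summed to 23.1 to 52.2 CPM in C26-TDCA livers, 23.2 to 64.6 CPM in C26 livers and 2.99 to 8.19 CPM in CT livers, with 10 of 11 higher in C26 than in CT livers. Those of sinusoidal endothelium summed to 593 to 783 CPM in C26-TDCA livers, 441 to 755 CPM in C26 livers and 350 to 430 CPM in CT livers, with 9 of 12 higher in C26 livers. Of the stellate cell markers 9 of 12 were higher and 2 were lower in C26 than in CT livers. Of the dendritic cell markers tested 4 of 6 were higher, and of 7 B cell markers 1 was lower. Beside these counts for the marker lists, 28.9% of all genes tested were higher and 29.2% were lower in C26 than in CT livers. T and NK cell markers, of which 9 of 20 were in the table, summed to 2.02 to 4.71 CPM in C26-TDCA livers, 2.58 to 4.87 CPM in C26 livers and 6.04 to 8.57 CPM in CT livers. No marker of these lists that was in the table was at 0 in every library of a group. The part of these shifts in cell markers in the results below was not tested, and in whole liver fewer cells of a type and less RNA per cell cannot be told apart.

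In GRCm38, Irgm1 (chr11:48861968-48871683, minus strand), Tgtp1 (chr11:48985327-48994172, minus strand) and Ifi47 (chr11:49076587-49096974, plus strand) lie near each other, with 82.4 kb between Tgtp1 and Ifi47. Igtp (chr11:58199556-58207591) and Irgm2 (chr11:58199618-58222782) overlap on the plus strand and share 162 exon bases. Gbp7 (chr3:142530342-142550149), Gbp3 (chr3:142560026-142573209) and Gbp2 (chr3:142620602-142638008) follow each other on the plus strand of chromosome 3, and Gbp6 (chr5:105270702-105293698) is on the minus strand of chromosome 5. Iigp1 lies elsewhere in the genome.

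The stretch before the start of 6 of these genes is shown, and no link between it and the changes in these livers was tested. Each line is the 250 bases before the RefSeq start (GRCm38.p6), read 5′ to 3′ on the gene's strand. For Irgm2, Tgtp1 and Irgm1 this start, and the stretch before it, lie inside the gene span given above. Capitals mark matches to the GAS letters TTCNNNGAA, which read the same on both strands as a pattern, and to the ISRE core letters GAAANNGAAA, searched on both strands and shown in the reverse complement where they lie on the other one.
Igtp (chr11:58199306-58199555, plus strand): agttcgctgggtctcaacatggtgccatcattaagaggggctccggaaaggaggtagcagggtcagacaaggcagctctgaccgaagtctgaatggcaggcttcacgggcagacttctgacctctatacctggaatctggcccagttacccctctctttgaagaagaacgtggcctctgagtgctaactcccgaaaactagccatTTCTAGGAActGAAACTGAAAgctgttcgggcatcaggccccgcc
Irgm2 (chr11:58214727-58214976, plus strand): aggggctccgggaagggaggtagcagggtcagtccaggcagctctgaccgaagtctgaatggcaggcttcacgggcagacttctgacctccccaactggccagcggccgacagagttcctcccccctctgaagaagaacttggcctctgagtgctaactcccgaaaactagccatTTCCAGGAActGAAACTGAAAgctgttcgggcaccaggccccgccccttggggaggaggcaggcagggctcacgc
Tgtp1 (chr11:48992247-48992496, minus strand): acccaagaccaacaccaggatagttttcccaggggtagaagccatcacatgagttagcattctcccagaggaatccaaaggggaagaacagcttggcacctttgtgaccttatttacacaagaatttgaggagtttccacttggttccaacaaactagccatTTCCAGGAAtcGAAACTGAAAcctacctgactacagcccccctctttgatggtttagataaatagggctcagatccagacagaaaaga
Gbp7 (chr3:142530086-142530335, plus strand): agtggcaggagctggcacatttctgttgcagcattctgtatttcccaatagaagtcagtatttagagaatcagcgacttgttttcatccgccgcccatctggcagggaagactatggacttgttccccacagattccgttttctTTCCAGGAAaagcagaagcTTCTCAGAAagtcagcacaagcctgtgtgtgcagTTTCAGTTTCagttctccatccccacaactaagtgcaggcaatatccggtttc
Irgm1 (chr11:48871421-48871670, minus strand): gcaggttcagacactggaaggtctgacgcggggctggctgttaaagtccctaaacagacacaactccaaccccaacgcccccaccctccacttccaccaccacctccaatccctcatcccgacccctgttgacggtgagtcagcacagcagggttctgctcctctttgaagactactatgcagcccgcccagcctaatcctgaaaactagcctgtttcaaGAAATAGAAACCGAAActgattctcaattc
Ifi47 (chr11:49076337-49076586, plus strand): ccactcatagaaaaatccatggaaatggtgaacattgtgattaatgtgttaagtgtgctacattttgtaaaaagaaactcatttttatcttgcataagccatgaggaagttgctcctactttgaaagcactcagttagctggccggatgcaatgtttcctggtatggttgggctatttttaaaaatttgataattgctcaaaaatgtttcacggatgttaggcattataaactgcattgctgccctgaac

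Igtp, Irgm2 and Tgtp1 each had 1 GAS match followed, a few bases further on, by 1 ISRE core match. Counted back from the start, the GAS match began at base 45 in Igtp, 75 in Irgm2 and 88 in Tgtp1, and the ISRE core match at base 34, 64 and 77 in the same genes. Gbp7 had 2 GAS matches and 1 ISRE core match, and Irgm1 had 2 overlapping ISRE core matches and no GAS match. Gbp3 also had 2 overlapping ISRE core matches, in 1 of its 2 windows, and Gbp2 had 1. Neither Gbp3 nor Gbp2 had a GAS match, and both were lower in C26 than in CT livers, as were Igtp, Tgtp1 and Gbp7. The window of Ifi47 held neither set of letters, which says only that they are not in this stretch. Of all 32851 mouse windows of 300 bases in the RefSeq table, 8.3% held the GAS letters, 3.44% the ISRE core letters and 0.454% both. The printed stretches of Igtp and Irgm2 were 68.1% identical when aligned, against 42.7% to 51.1% for the other pairs of 8 members.

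In C26 livers the GTPases did not move together. Of 10 members, 6 were lower than in CT livers and 2 were higher, with adjusted p under 0.05 in edgeR's quasi-likelihood test over all genes, the threshold for a change throughout. All 4 GBP members and 1 member of each IRG class, Igtp and Tgtp1, were among those that fell, while Ifi47 and Irgm1 rose. Over all genes tested 29.2% were lower and 28.9% were higher in C26 than in CT livers. The median log2 fold change was -0.77 over the 10 members and -0.0031 over all genes. The groups did not overlap for 5 members, against 29.5% of all genes.

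Igtp, the IRGM protein of the endoplasmic reticulum, had the largest fall among the members in C26 against CT livers. Its lowest, median and highest levels were 18.3, 22.5 and 33.5 CPM in C26-TDCA livers, 16.2, 24.2 and 42.3 CPM in C26 livers, and 47.1, 56.3 and 75.2 CPM in CT livers. All CT livers were above all tumour-bearing livers, and the highest tumour-bearing liver, C26 02, stood close to the lowest CT liver. The mean was 24.99 ± 8.26 CPM in C26 livers and 59.3 ± 11.5 CPM in CT livers (SD, n = 8 and 6). On the log2 scale Igtp fell by 1.25 (SE 0.17, adjusted p = 7.49e-07), a level 2.38-fold lower in C26 livers.

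Irgm1, the IRGM protein of the Golgi and lysosomes, was slightly higher in C26 livers. It ranged over 45.0, 51.5 and 58.7 CPM (lowest, median, highest) in C26-TDCA livers, 49.5, 54.4 and 70.7 CPM in C26 livers, and 41.4, 45.2 and 51.0 CPM in CT livers. C26 and CT livers overlapped in a narrow band, and C26 02 was again the highest. In C26 against CT livers Irgm1 rose by 0.29 on the log2 scale (SE 0.08, adjusted p = 0.00284).

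Irgm2, the remaining IRGM member, showed no change past the threshold. Its lowest, median and highest levels were 49.2, 54.8 and 67.8 CPM in C26-TDCA livers, 44.7, 57.6 and 70.1 CPM in C26 livers, and 50.4, 64.5 and 75.5 CPM in CT livers. The 3 groups overlapped widely. Its log2 fold change in C26 against CT livers was -0.18 (95% interval -0.40 to 0.04, adjusted p = 0.153). Irgm2 shares exon bases with Igtp, and 12.3% of the stretches of 50 bases in Igtp also occur in Irgm2, so that reads of these genes could be exchanged. The sum of both was 67.4 to 101.2 CPM in C26-TDCA livers, 61.5 to 112.4 CPM in C26 livers and 100.5 to 142.6 CPM in CT livers.

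Iigp1, an effector that assembles on parasite vacuoles, was the most abundant of the GTPase transcripts and was also not changed past the threshold. It had 250.4, 341.3 and 416.8 CPM (lowest, median, highest) in C26-TDCA livers, 257.9, 370.5 and 468.5 CPM in C26 livers, and 292.9, 329.5 and 349.8 CPM in CT livers. All CT livers fell within the spread of the tumour-bearing livers, which was wider: the coefficient of variation was 15.9% in C26-TDCA livers, 18.3% in C26 livers and 5.69% in CT livers. The log2 fold change in C26 against CT livers was 0.12 (95% interval -0.11 to 0.36, adjusted p = 0.368). When a trend with transcript length and GC content was removed it was 0.27 (adjusted p = 0.0243), while over the other alternatives it was not called.

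Ifi47, an effector of the IRG family, rose in C26 livers, where its level was 2.19-fold that of CT livers. Its lowest, median and highest levels were 21.98, 26.9 and 29.7 CPM in C26-TDCA livers, 24.1, 31.2 and 34.6 CPM in C26 livers, and 9.95, 13.3 and 16.9 CPM in CT livers. All tumour-bearing livers were above all CT livers. Ifi47 rose by 1.13 on the log2 scale in C26 against CT livers (SE 0.10, adjusted p = 8.49e-10). Ifi47 shares 111 exon bases with the neighbouring gene Olfr56, which had at most 0.78 CPM in any library.

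Tgtp1, an effector that coats parasite vacuoles early, fell in C26 livers. Its lowest, median and highest levels were 1.17, 1.72 and 2.19 CPM in C26-TDCA livers, 1.19, 1.89 and 3.52 CPM in C26 livers, and 2.52, 3.54 and 4.95 CPM in CT livers. C26 02, at 3.52 CPM, was the 1 C26 liver within the range of CT livers, and all C26-TDCA livers were below that range. Tgtp1 fell by 0.90 on the log2 scale in C26 against CT livers (SE 0.19, adjusted p = 0.00032). Of the stretches of 50 bases in Tgtp1, 91.4% also occur in another gene, chiefly its near copy Tgtp2, so that its own level is uncertain. Tgtp2 fell as well (log2 fold change -2.099, SE 0.23), and Tgtp1 and Tgtp2 summed to 1.57 to 2.92 CPM in C26-TDCA livers, 2.04 to 3.76 CPM in C26 livers and 5.41 to 7.68 CPM in CT livers. With both counted together no tumour-bearing liver reached a CT liver; the sum was taken after the values were seen.

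**Figure D1:**
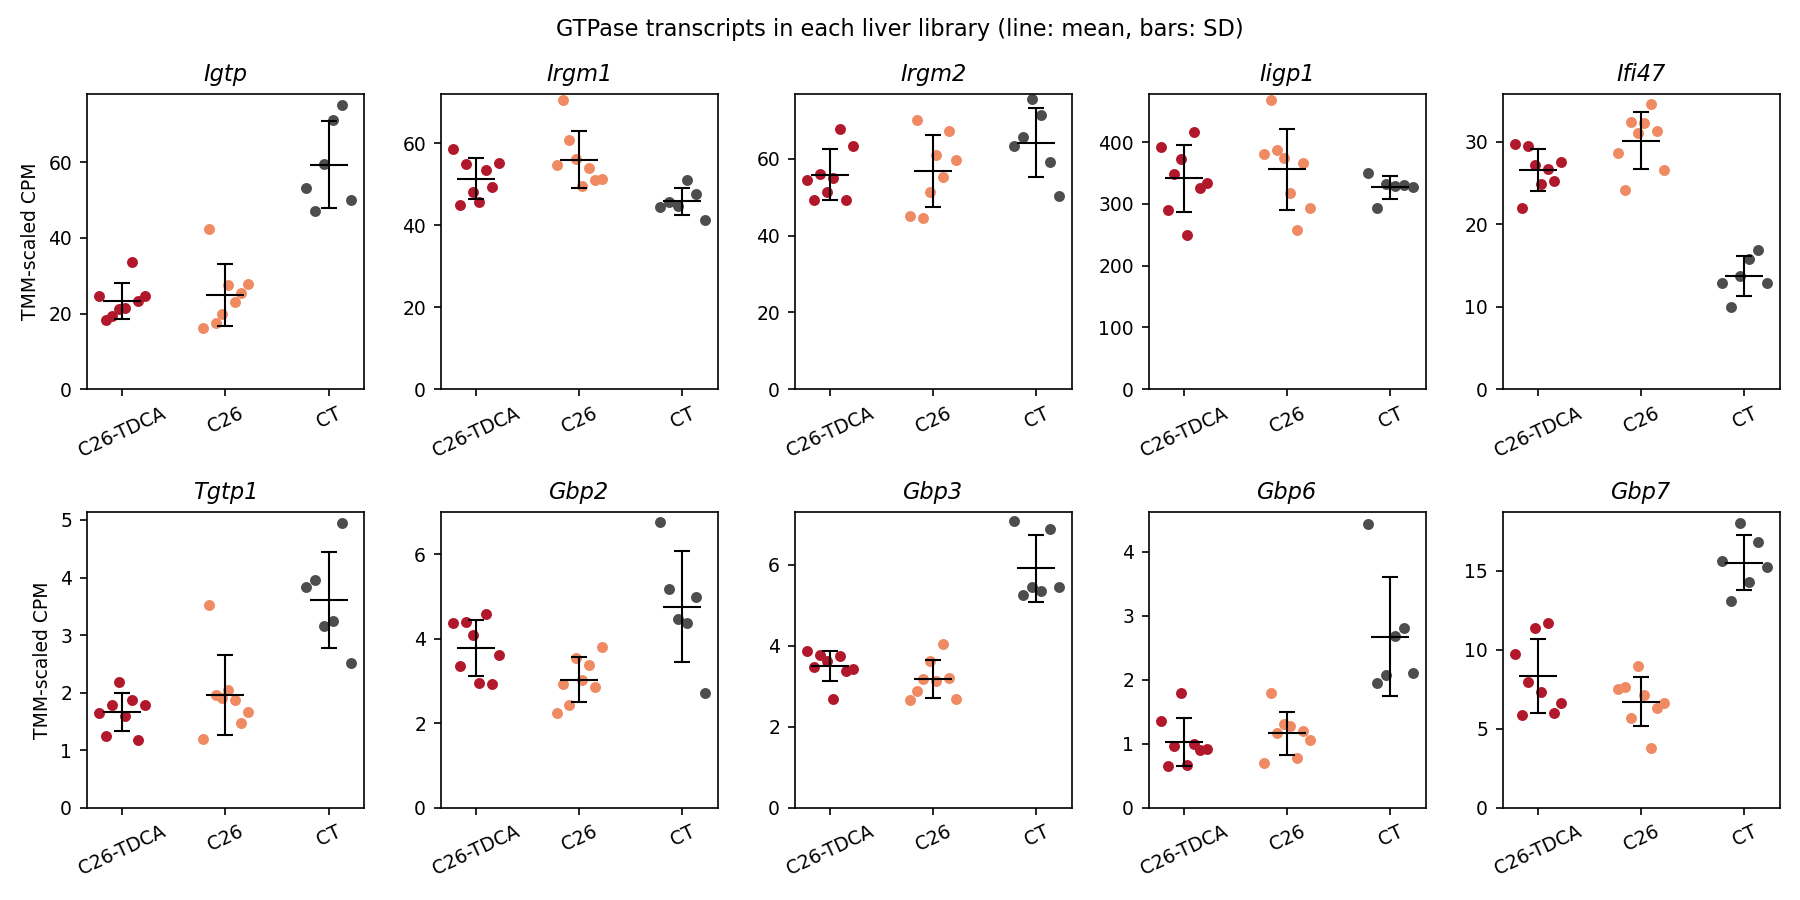
Level of each GTPase transcript (TMM-scaled CPM, linear axis from 0) in the 8 C26-TDCA, 8 C26 and 6 CT livers, with 1 point per liver, a line at the mean and bars of 1 SD. Igtp, Gbp3, Gbp6 and Gbp7 sit lower in both tumour-bearing groups than in CT livers, Ifi47 sits higher, and Irgm2 and Iigp1 overlap in all 3 groups.

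Gbp7, a GBP that in mice binds the autophagy protease Atg4b, fell in C26 livers by 1.21 on the log2 scale (SE 0.16, adjusted p = 7.85e-07). Its lowest, median and highest levels were 5.85, 7.65 and 11.7 CPM in C26-TDCA livers, 3.80, 6.89 and 8.96 CPM in C26 livers, and 13.1, 15.4 and 18.01 CPM in CT livers. No tumour-bearing liver reached the lowest CT liver. Gbp3, another GBP of the cluster on chromosome 3, had 2.69, 3.54 and 3.88 CPM in C26-TDCA livers, 2.66, 3.15 and 4.03 CPM in C26 livers, and 5.24, 5.46 and 7.08 CPM in CT livers. These groups did not overlap between tumour-bearing and CT livers either, and Gbp3 fell by 0.90 on the log2 scale in C26 livers (SE 0.11, adjusted p = 2.87e-07).

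Gbp2, a prenylated GBP that reaches bacterial and parasite membranes, was lower in C26 livers with more overlap. It had 2.92, 3.85 and 4.595 CPM (lowest, median, highest) in C26-TDCA livers, 2.24, 2.98 and 3.81 CPM in C26 livers, and 2.73, 4.74 and 6.78 CPM in CT livers. The lowest CT liver, CT 08, lay inside the C26 range, and the other CT livers lay above it. Gbp2 fell by 0.65 on the log2 scale in C26 against CT livers (SE 0.16, adjusted p = 0.00147).

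Gbp6, a GBP of the cluster on chromosome 5, was the least abundant member. It had 0.645, 0.942 and 1.79 CPM (lowest, median, highest) in C26-TDCA livers, 0.694, 1.18 and 1.79 CPM in C26 livers, and 1.95, 2.39 and 4.43 CPM in CT livers. All CT livers were above all tumour-bearing livers, and CT 01 was well above the other CT livers. The log2 fold change in C26 against CT livers was -1.21 (SE 0.24, adjusted p = 0.00011), and without CT 01 it was -1.02. Of the stretches of 50 bases in Gbp6, 59.7% occur in another gene, 51.5% in Gm43302 and 43.8% in Gbp10, so that its own level is uncertain. Gbp10 fell by 2.96 on the log2 scale (SE 0.27), and the sum of Gbp6 and Gbp10 was 1.21 to 3.53 CPM in C26-TDCA livers, 1.39 to 4.36 CPM in C26 livers and 9.45 to 16.0 CPM in CT livers.

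Leaving out any 1 library kept all 10 calls in C26 against CT livers. The order of the members per kilobase of exon (CPM per kb, mean ± SD) differed between tumour-bearing and CT livers. Iigp1 led in every group, at 58.6 ± 9.29 in C26-TDCA livers, 61.2 ± 11.2 in C26 livers and 56.2 ± 3.20 in CT livers. Igtp was at 11.5 ± 2.33 in C26-TDCA livers, 12.4 ± 4.09 in C26 livers and 29.3 ± 5.71 in CT livers. Irgm2 was at 15.1 ± 1.80 in C26-TDCA livers, 15.4 ± 2.56 in C26 livers and 17.4 ± 2.42 in CT livers. By the mean Igtp thus ranked below Irgm2 in both tumour-bearing groups, where its range overlapped those of Irgm2 and Ifi47. Igtp exceeded Ifi47 in 6 of 8 C26-TDCA and 3 of 8 C26 livers. The order between genes depends on the length used: Ifi47 has 2473 exon bases, and its longest transcript has 1773. In CT livers Igtp ranked next after Iigp1, above Irgm2 in 6 of 6 livers with no overlap.

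Ifi47 was at 10.7 ± 1.03 CPM per kb in C26-TDCA livers, 12.2 ± 1.38 in C26 livers and 5.54 ± 0.99 in CT livers. Irgm1 was at 8.84 ± 0.86 CPM per kb in C26-TDCA livers, 9.64 ± 1.18 in C26 livers and 7.88 ± 0.56 in CT livers. Ifi47 exceeded Irgm1 in 8 of 8 C26-TDCA and 7 of 8 C26 livers, with overlapping ranges, and Irgm1 exceeded Ifi47 in 6 of 6 CT livers with none. Below these came Gbp2, Gbp7 and Gbp3, between 0.97 and 1.51 CPM per kb on average in the tumour-bearing groups and between 1.81 and 2.76 in CT livers. Gbp2 and its next neighbour in the order overlapped in every group. Tgtp1 averaged 0.52, 0.61 and 1.13 CPM per kb in C26-TDCA, C26 and CT livers, and Gbp6, last in every group, averaged 0.17, 0.19 and 0.45.

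Ratios between members within a liver, which do not depend on the scaling of the library, showed the same spread of directions. The log2 ratio of Igtp to Ifi47 was -0.32 ± 0.56 in C26 livers and 2.11 ± 0.10 in CT livers, a difference of -2.44 (p = 0.000333 by a two-sided exact permutation of livers between groups; with 3003 regroupings no smaller p is possible, and the adjusted p over 45 pairs was 0.000881). The log2 ratio of Igtp to Irgm2, its overlapping neighbour, was -1.23 ± 0.24 in C26 livers and -0.12 ± 0.30 in CT livers, a difference of -1.11 (exact permutation p = 0.000333, adjusted p = 0.000881). The log2 ratio of Igtp to Gbp7, which both fell, was 1.87 ± 0.55 in C26 livers and 1.92 ± 0.26 in CT livers (exact permutation p = 0.847, adjusted p = 0.886). Of the 45 pairs, 31 differed in ratio between C26 and CT livers at an adjusted p under 0.05.

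TDCA brought no member past the threshold in C26-bearing mice. Of 10 members, 0 changed in C26-TDCA against C26 livers in edgeR's test, where 1.73% of all genes rose and 0.237% fell, and DESeq2 also called 0. At an unadjusted p under 0.05 there was 1 member, Gbp2. The groups overlapped for all 10 members, while 0.149% of all genes did not overlap. The log2 fold changes ran from -0.22 (Tgtp1) to 0.32 (Gbp2), with a median of -0.077 over the members and -0.014 over all genes.

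Gbp2 averaged 3.79 ± 0.67 CPM in C26-TDCA livers and 3.03 ± 0.54 CPM in C26 livers (SD, n = 8 each), a log2 fold change of 0.32 (95% interval 0.0029 to 0.64, adjusted p = 0.31). Gbp7 averaged 8.31 ± 2.33 CPM in C26-TDCA livers and 6.71 ± 1.53 CPM in C26 livers, a log2 fold change of 0.31 (95% interval -0.0095 to 0.63, adjusted p = 0.334). Ifi47 averaged 26.6 ± 2.55 CPM in C26-TDCA livers and 30.1 ± 3.42 CPM in C26 livers, a log2 fold change of -0.18 (95% interval -0.37 to 0.0029, adjusted p = 0.326). None of these was called under any alternative.

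For Igtp the log2 fold change of C26-TDCA against C26 livers was -0.09 (95% interval -0.42 to 0.24, adjusted p = 0.836), and without C26 02 its sign turned, to 0.05. The intervals were narrowest for Irgm1 (-0.27 to 0.02) and widest for Gbp6 (-0.64 to 0.33), and those of all 10 members lay between -0.64 and 0.64. Each interval bounds the change of its own member, more closely for Irgm1 than for Gbp6. Of the 45 ratios between members, 0 differed at an adjusted p under 0.05 (exact permutation tests, lowest adjusted p = 0.0594), and 14 had an unadjusted p under 0.05. The log2 ratio of Ifi47 to Gbp7 was 1.72 ± 0.34 in C26-TDCA livers and 2.197 ± 0.49 in C26 livers (exact permutation p = 0.032, adjusted p = 0.144).

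**Figure D2:**
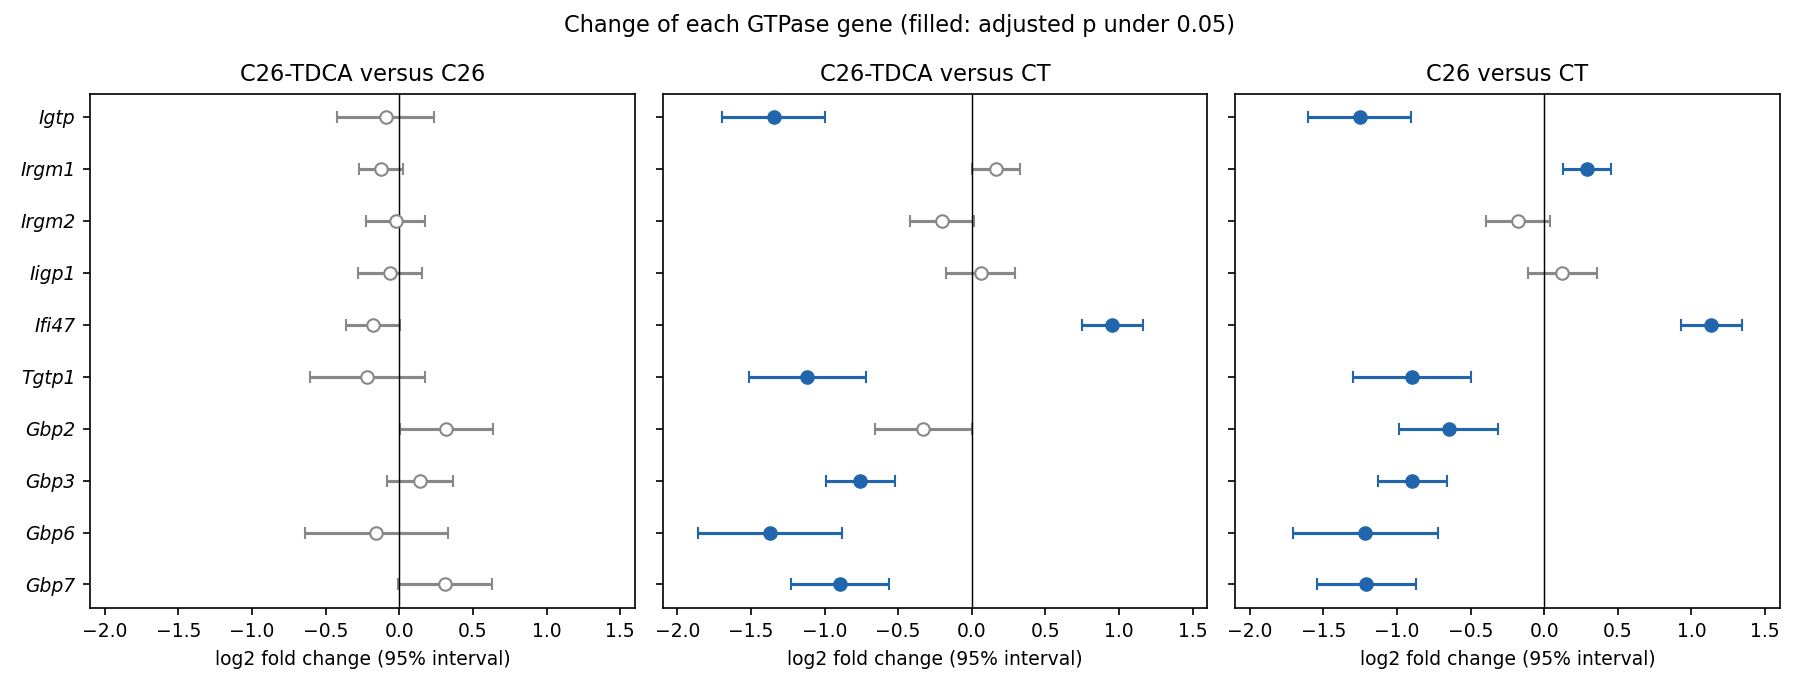
Log2 fold change of the 10 GTPase genes with 95% intervals in C26-TDCA against C26, C26-TDCA against CT and C26 against CT livers; filled points have an adjusted p under 0.05. None of the 10 is filled for C26-TDCA against C26, and Ifi47 is the 1 member filled above 0 in C26-TDCA against CT.

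C26-TDCA livers were also set against CT livers, which serve as controls for C26 livers too, so that these values and those of C26 livers are not independent. In C26-TDCA livers 5 of 10 members were lower and 1 was higher, where 28.2% and 28.7% of all genes were. The groups did not overlap for 6 members, against 31.6% of all genes. The log2 fold changes were -1.35 for Igtp (SE 0.17, adjusted p = 2.46e-07), -1.37 for Gbp6 (SE 0.24, adjusted p = 2.63e-05) and -1.12 for Tgtp1 (SE 0.19, adjusted p = 2.66e-05). Gbp7 fell by 0.90 on the log2 scale (SE 0.16, adjusted p = 4.04e-05) and Gbp3 by 0.76 (SE 0.11, adjusted p = 3.18e-06). Ifi47 rose by 0.95 (SE 0.10, adjusted p = 1.53e-08).

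The other 4 members were not called in C26-TDCA against CT livers. The log2 fold change was 0.16 for Irgm1 (adjusted p = 0.0778), -0.20 for Irgm2 (adjusted p = 0.103), 0.06 for Iigp1 (adjusted p = 0.669) and -0.33 for Gbp2 (adjusted p = 0.0856). Some of these rested on 1 library: Irgm1 was called without C26-TDCA 02, C26-TDCA 05, C26 02 or CT 06. Irgm2 was called without C26-TDCA 06 or CT 08, and Gbp2 without CT 08, where it reached -0.44 (adjusted p = 0.0136). Other left-out libraries moved the log2 fold change closer to none. It was 0.13 for Irgm1 without C26-TDCA 01, -0.15 for Irgm2 without CT 05 and -0.21 for Gbp2 without CT 01. Irgm1 and Gbp2 were called in C26 against CT livers and not in C26-TDCA against CT livers, but neither differed between C26-TDCA and C26 livers past the threshold.

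Within groups the members varied partly together, to a different extent in each group. After each gene's group mean was taken out of its log2 CPM, 42 of 45 pairs of members had a positive Pearson r over the 22 livers, with a median of 0.28. Within single groups, r was negative for 0 of 45 pairs in C26-TDCA livers (median r 0.56), 17 in C26 livers (median 0.11) and 8 in CT livers (median 0.37), and these differences were not tested. In C26 livers the lowest was that of Igtp and Ifi47, at -0.577. C26 02 was the highest C26 liver for Igtp and the lowest for Ifi47. Over the 22 livers, r of Igtp and Ifi47 was 0.098, and without C26-TDCA 06 and C26 02 it was 0.466. Of the 45 pairs, 5 had an adjusted p under 0.05 by permutation within groups. For Igtp and Irgm2, r was 0.735 (permutation p = 0.00037, adjusted p = 0.0166) and Spearman's rho was 0.692 (permutation p = 0.00135, adjusted p = 0.0484). Without the 2 livers farthest from the median of Igtp, C26-TDCA 06 and C26 02, r was 0.630. Within the groups it was 0.756 in C26-TDCA, 0.914 in C26 and 0.272 in CT livers. These genes share exon bases, and the part of shared reads in this r was not tested.

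For Iigp1 and Gbp7, which lie on different chromosomes, r was 0.677 (permutation p = 0.00322, adjusted p = 0.0362) and rho was 0.691 (permutation p = 0.00215, adjusted p = 0.0484). Without C26-TDCA 05 and C26 06, r was 0.595. Within the groups r was 0.723 in C26-TDCA, 0.643 in C26 and 0.667 in CT livers. The other 3 pairs were Irgm1 with Iigp1 (r = 0.650), Tgtp1 with Gbp6 (r = 0.628) and Iigp1 with Gbp6 (r = 0.620). Their Spearman's rho was 0.598, 0.582 and 0.605, each with an adjusted permutation p of 0.0709. Without the 2 farthest livers r was 0.486, 0.475 and 0.524 in the same order. Irgm1 with Iigp1 had r of 0.717 in C26-TDCA, 0.719 in C26 and -0.0635 in CT livers. In the 6 CT livers both genes varied little, with a coefficient of variation of 7.13% for Irgm1 and 5.69% for Iigp1. That r therefore cannot tell whether the relation was absent in CT livers. Tgtp1 with Gbp6 had 0.655, 0.794 and 0.376 in C26-TDCA, C26 and CT livers, and Iigp1 with Gbp6 had 0.744, 0.571 and 0.710.

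Single livers stood out across members. C26 02 was the highest C26 liver for 6 of 10 members and the lowest for 1, Ifi47. Its library had the fewest counts of the tumour-bearing livers, 17.5 M. Among genes that are not members, it was also the lowest C26 liver for Socs1 and Irf8 and the highest for Bst2 and Cmpk2. How often each liver was highest or lowest over all genes was not counted. C26-TDCA 06 was the highest C26-TDCA liver for 5 members, and C26-TDCA 02 was the lowest for 6. Among CT livers, CT 02 was the lowest for 6 members and CT 08 for 4.

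**Figure D3:**
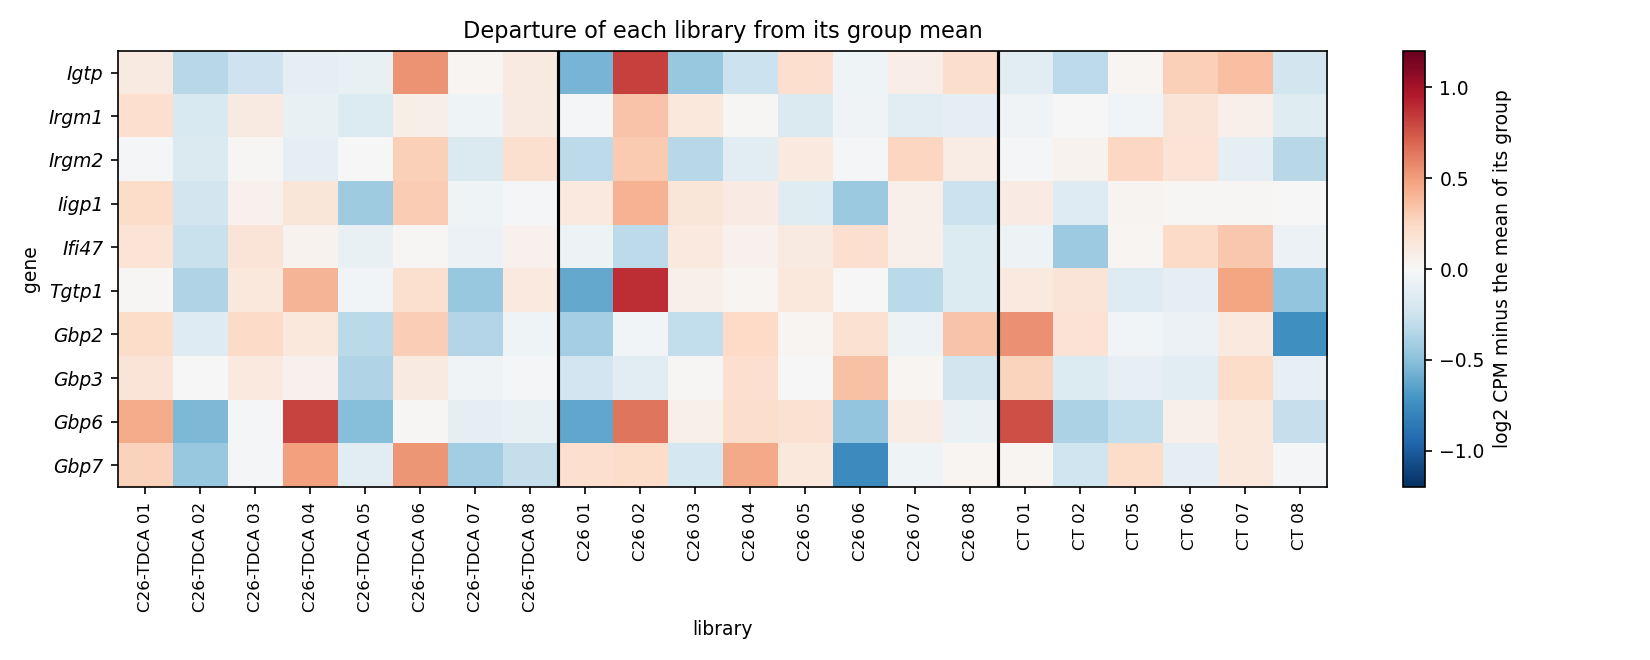
Log2 CPM of each GTPase gene (down the page) in each liver (across) minus the mean of its group, with C26-TDCA, C26 and CT livers separated by lines. C26 02 is red for most genes and blue for Ifi47, and C26-TDCA 02 is blue for nearly all.

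The genes whose variation within groups was most like the members' mean over the 22 livers were Rtn4 (Pearson r = 0.886), Gbp10 (0.844), Tcf24 (0.798), Cmpk2 (0.790), Mcm5 (0.784), Psmb9 (0.773), Ifit1 (0.767), Aqp8 (0.762), Acsl5 (0.760) and Plpp3 (0.757). This is a description over genes of at least 1 CPM, and the values share libraries and depth. Among these 10, Gbp10, Cmpk2, Ifit1 and Psmb9 are interferon targets. Of the stretches of 50 bases in the member Gbp6, 43.8% occur in Gbp10, and the part of shared reads in its r was not tested.

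The other genes of the IRG and GBP families mostly fell in C26 livers. Of 17 such genes tested, 10 were lower and 1 was higher in C26 than in CT livers, with a median log2 fold change of -0.76, where 29.2% of all genes were lower and 28.9% were higher. Gbp10 had 0.653, 1.16 and 2.57 CPM (lowest, median, highest) in C26 livers and 7.35, 9.88 and 11.6 CPM in CT livers, and its change was the largest (log2 fold change -2.96, SE 0.27, adjusted p = 1.24e-09). Gm12250 fell by 1.39 (SE 0.18, adjusted p = 4.98e-07) and Gbp4 by 1.38 (SE 0.17, adjusted p = 2.24e-07), both on the log2 scale. The 1 gene that rose was Irgq (0.71, SE 0.14, adjusted p = 0.000106), a distant IRG relative. In C26-TDCA against CT livers 7 of the 17 were lower and 2 were higher, where 28.2% and 28.7% of all genes were.

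F830016B08Rik, an IRG family gene, was the 1 gene of these families that changed with TDCA. It had 3.13, 20.7 and 35.2 CPM (lowest, median, highest) in C26-TDCA livers, 1.74, 2.44 and 16.4 CPM in C26 livers, and 6.19, 10.8 and 13.0 CPM in CT livers. The ranges of C26-TDCA and C26 livers overlapped through C26-TDCA 08, the lowest of its group, and C26 01, the highest of its group. The log2 fold change in C26-TDCA against C26 livers was 2.28 (SE 0.43, adjusted p = 0.0143), and without C26 01 it was 3.06 (adjusted p = 4.01e-05). In C26 against CT livers it was -1.25 (SE 0.46, adjusted p = 0.0223), and without C26 01 it was -2.03. In C26-TDCA against CT livers it was 1.03 (SE 0.44, adjusted p = 0.0489), and this call was lost in 14 of 22 fits that left out 1 library, namely C26-TDCA 01, 03, 04, 06 or 07, C26 02, 05 or 07, or any CT library.

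Upstream of the GTPases, transcripts for the receptor chain Ifngr1 and for the kinases Jak1 and Jak2 rose. Of the 12 receptor and signalling genes reported here, 6 were higher in C26 than in CT livers, beside 28.9% of all genes. The median log2 fold change of these 12 was 0.31. Ifngr1 rose by 0.52 (SE 0.07, adjusted p = 7.96e-07), Jak1 by 0.46 (SE 0.06, adjusted p = 1.33e-06) and Jak2 by 0.35 (SE 0.10, adjusted p = 0.00337), all on the log2 scale in C26 against CT livers. Irf8, an interferon target that macrophages and dendritic cells also express without interferon, rose by 0.98 (SE 0.12, adjusted p = 2.59e-07), beside the higher macrophage markers given above. Stat2, a transcription factor of type I signalling, rose by 0.54 (SE 0.06, adjusted p = 6.75e-08). Irf1, the transcription factor that drives many GTPase genes, averaged 32.5 ± 2.64 CPM in C26 livers and 31.9 ± 6.95 CPM in CT livers (log2 fold change 0.03, SE 0.10, adjusted p = 0.818). Ifngr2 (0.27, adjusted p = 0.0642), Nlrc5 (0.07, adjusted p = 0.666) and Ciita (-0.12, adjusted p = 0.781), the last 2 being regulators of antigen presentation, were not called. Ifng was not analysed here.

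The feedback inhibitors Socs1 and Socs3, which block Jak kinases and cytokine receptors, rose in the tumour-bearing livers. Of 12 inhibitors of interferon signalling tested, 5 were higher and 3 were lower in C26 than in CT livers, beside 28.9% and 29.2% of all genes. Socs3, which interleukin-6 also induces, had 199.1, 232.5 and 297.9 CPM (lowest, median, highest) in C26-TDCA livers, 206.3, 251.6 and 281.6 CPM in C26 livers, and 4.86, 8.00 and 13.8 CPM in CT livers. Its log2 fold change in C26 against CT livers was 4.92 (SE 0.19, adjusted p = 1.19e-16). Socs1, the main inhibitor of the interferon-gamma receptor, had 8.75, 10.2 and 17.2 CPM in C26-TDCA livers, 7.82, 14.0 and 19.0 CPM in C26 livers, and 0.105, 0.195 and 1.47 CPM in CT livers. Every tumour-bearing liver was above every CT liver, of which CT 06 was the highest. Its log2 fold change in C26 against CT livers was 4.84 (SE 0.35, adjusted p = 1.79e-11), and 5.87 without CT 06. In C26-TDCA against CT livers it was 4.56 (SE 0.35, adjusted p = 5.22e-11), and 5.58 without CT 06. The lowest and median CT levels of Socs1 rest on a few reads, so that the size of these fold changes is uncertain.

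The phosphatases Ptpn1 and Ptpn2, which act on Jak kinases, rose by 1.43 (SE 0.08, adjusted p = 6.28e-13) and 1.24 (SE 0.10, adjusted p = 1.07e-10) on the log2 scale in C26 livers. Usp18, an inhibitor of the type I interferon receptor that interferon itself induces, fell by 1.16 (SE 0.17, adjusted p = 3.33e-06). In C26-TDCA against C26 livers edgeR called 0 of these 12 signalling genes and 0 of the 12 inhibitors, with 1 of each list at an unadjusted p under 0.05, and DESeq2 also called 0 in both lists. The log2 fold changes there were -0.28 for Socs1 (adjusted p = 0.574) and -0.08 for Socs3 (adjusted p = 0.85).

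**Figure D4:**
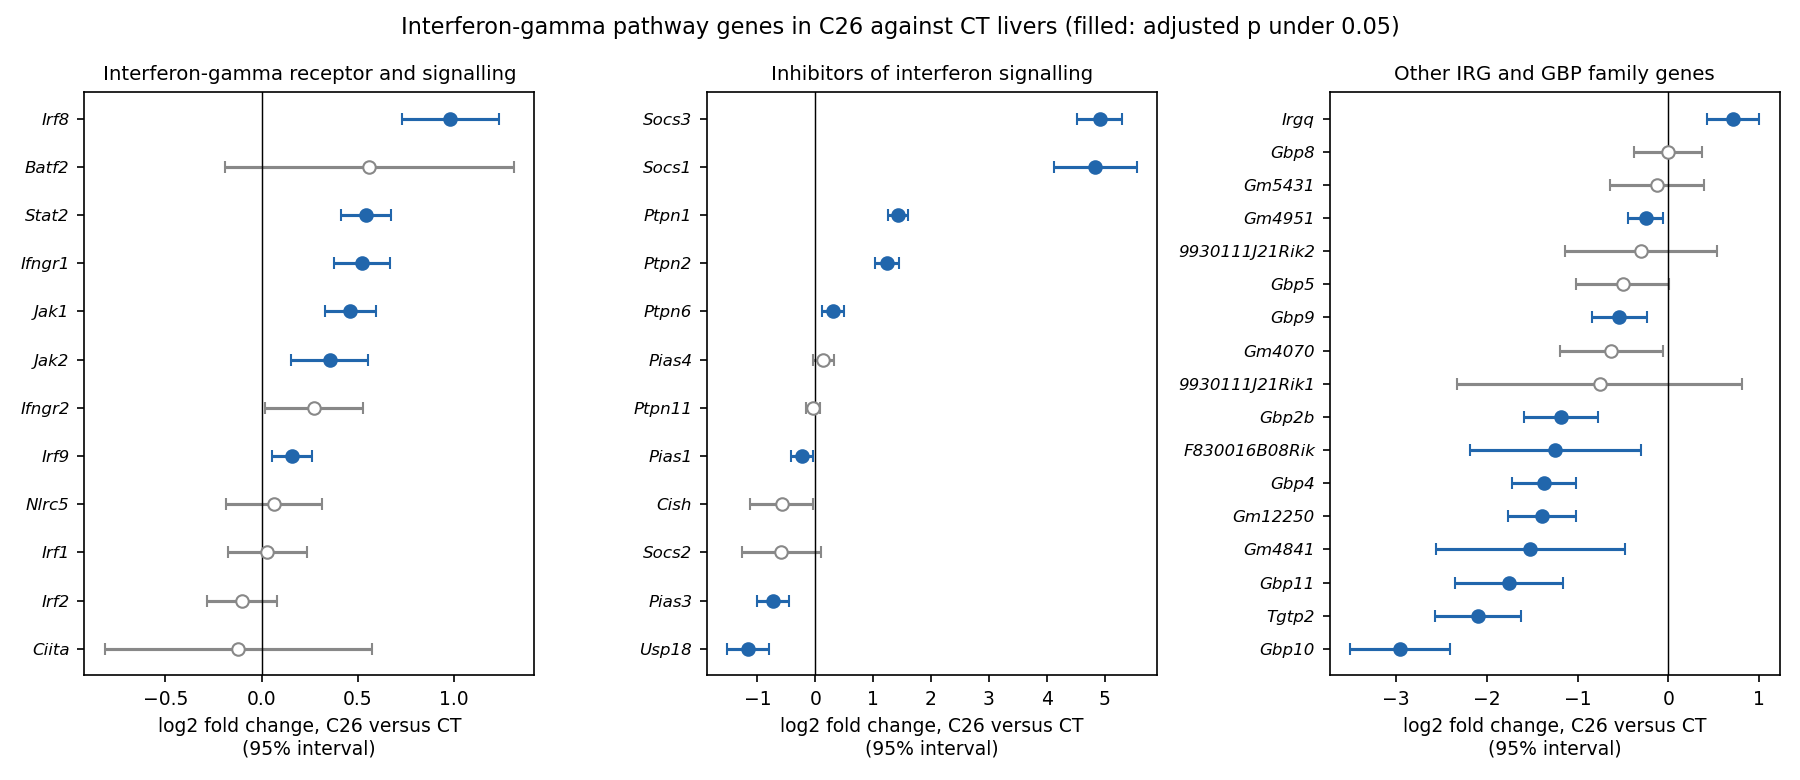
Log2 fold change in C26 against CT livers, with 95% intervals, of genes for the interferon-gamma receptor and its signalling, of inhibitors of interferon signalling and of the other IRG and GBP genes; filled points have an adjusted p under 0.05. Irf8 is the highest of the 12 signalling genes plotted, Socs1 and Socs3 lie near 5, and Gbp10 is the lowest of the family genes.

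Of 24 other targets of interferon-gamma tested, 9 were higher and 6 were lower in C26 than in CT livers, with a median log2 fold change of -0.11. These counts lie near the background of 28.9% higher and 29.2% lower over all genes. Cxcl9, a chemokine for T cells and a close follower of interferon-gamma, had 0.963, 1.57 and 3.44 CPM (lowest, median, highest) in C26 livers and 8.08, 15.3 and 20.98 CPM in CT livers. No C26 liver reached a CT liver, and the log2 fold change was -2.94 (SE 0.27, adjusted p = 1.32e-09). Il18bp, which captures interleukin-18 and thereby limits interferon-gamma, had 45.9, 49.995 and 59.4 CPM in C26 livers and 6.52, 7.40 and 8.06 CPM in CT livers. It rose by 2.81 on the log2 scale (SE 0.10, adjusted p = 3.25e-17). Icam1, an adhesion molecule that other inflammatory signals also induce, rose by 2.30 (SE 0.13, adjusted p = 3.35e-13), and Serping1, the C1 inhibitor, by 1.66 (SE 0.07, adjusted p = 3.31e-15).

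Of the 30 genes that type I interferon induces, 20 were lower and 6 were higher in C26 than in CT livers, with a median log2 fold change of -0.54, where 29.2% of all genes were lower and 28.9% were higher. Bst2, which tethers viruses to the cell surface, fell by 1.16 (SE 0.14, adjusted p = 1.24e-07), and Cmpk2, a mitochondrial nucleotide kinase, by 1.38 (SE 0.21, adjusted p = 3.34e-06). Zbp1, a sensor of left-handed nucleic acids, rose by 2.10 (SE 0.14, adjusted p = 6.07e-12). In C26-TDCA against C26 livers edgeR called 0 of the 24 interferon-gamma targets and 0 of the 30 type I genes, with 7 and 5 at an unadjusted p under 0.05. DESeq2 called 1 of the interferon-gamma targets lower, and 1 type I gene higher and 1 lower. The closest to the threshold among those named was Tap1, a peptide transporter, at 20.99 ± 3.96 CPM in C26-TDCA livers and 27.4 ± 2.18 CPM in C26 livers (log2 fold change -0.39, SE 0.11, adjusted p = 0.0535).

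Of 6 genes tested that belong to the cytokines and receptors acting upstream of interferon-gamma, 3 were lower and 0 were higher in C26 than in CT livers. These were Il15ra (log2 fold change -0.93, SE 0.10, adjusted p = 1.70e-08), which presents interleukin-15 to NK cells, Il12rb1 (-1.66, SE 0.27, adjusted p = 1.27e-05), a subunit of the interleukin-12 receptor, and Il15 itself (-1.29, SE 0.23, adjusted p = 4.37e-05). T and NK cell markers were lower in the same livers: of 5 tested, 3 fell (Cd4, Klrk1 and Gzma) and 0 rose in C26 against CT livers, at low levels of at most 2.47 CPM in the mean of CT livers. Macrophage markers were higher, with 11 of 12 called. Beside these counts, 29.2% of all genes tested were lower and 28.9% were higher in C26 than in CT livers.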

How the data were processed

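Liver polyA RNA of 22 mice was analysed from 1 table of raw read counts per Ensembl gene, used as the authors deposited it. HISAT2 2.2.1, featureCounts 2.0.3, Trimmomatic 0.40, FastQC, bcl2fastq 2.17, DESeq2 1.42.0 and the build GRCm38 are named in the submitters' processing notes. How strand and reads matching several genes were handled is not given in the sources used here, so that near-identical and overlapping genes are uncertain. Every gene of the table has at least 10 counts in some library.

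Genes were tested with edgeR 4.0.16 in R 4.3.3. filterByExpr with a minimum count of 10 kept 14785 of 15448 genes. Libraries were scaled by TMM, 1 model with a mean per group was fitted to all 22 libraries, and each contrast was put to the quasi-likelihood test, its p-values adjusted by Benjamini-Hochberg over all genes tested with a threshold of 0.05. Standard errors are approximate (the size of the log2 fold change divided by the root of the F statistic), and 95% intervals use the t distribution with the fit's degrees of freedom. Levels are CPM on TMM-scaled library sizes. Log2 CPM for correlations used a prior count of 2, and ratios used log2 CPM with no prior count. The median biological coefficient of variation was 15.1%. The fit was tested on simulated counts.

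Correlations between members used group-centred values and 100000 permutations within groups. Positions, exon lengths and shared stretches of 50 bases come from GENCODE M21 (GRCm38); promoter windows come from RefSeq (GRCm38.p6), with 8 members matched. The text names all 10 members, a fixed set of pathway genes, up to 4 called genes of each list by p, and the 10 genes most like the members; Olfr56, Gm43302, the T and NK cell markers and some sums were named after their values were seen. The list of receptor and signalling genes held 1 more gene, which is not reported here and is left out of that list's counts and median. Members and lists were chosen with earlier results of these data known. Alternatives were DESeq2's test and size factors, upper-quartile scaling, no filter, a fit on the 2 groups compared, voomWithQualityWeights in limma 3.58.1, a replicate block, removal of a length and GC trend, each library left out, and C26 01 and C26-TDCA 08 left out together. Replicate numbers are not said to pair mice, so the model had no block.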

Additional observations from a re-analysis of the deposited data

Results flagged for a closer look

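In 30 sets of values (10 members in 3 groups), the highest and the lowest liver were compared with the rest of their group by Dixon's gap, and 5 stood apart; chance gives about 1 in 20 groups. Igtp had 33.5 CPM in C26-TDCA 06 and 42.3 CPM in C26 02, each the highest of its group and far above the next. Tgtp1 had 3.52 CPM in C26 02, also the highest of its group by a wide gap. Gbp3 had 2.69 CPM in C26-TDCA 05, the lowest of its group, and Gbp6 had 4.43 CPM in CT 01, the highest of its group.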

How the results depend on the processing

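The count of members called was within 1.5 times the reported one for every comparison and direction under all alternatives but for 1 case. The number higher in C26-TDCA than in CT livers was 1, and 2 with upper-quartile scaling, with a fit on the 2 groups compared and with voomWithQualityWeights; with 1 library left out it ran from 1 to 2. The added gene was Irgm1. In C26-TDCA against C26 livers the sign turned for uncalled members: with 1 library left out the log2 fold change ran from -0.19 to 0.05 for Igtp, -0.071 to 0.022 for Irgm2 and -0.12 to 0.0052 for Iigp1, each above 0 without C26 02, and Irgm2 also without C26 07 (0.01). The cause was not tested. With replicate numbers as a block, the counts of members called stayed as without it. They were 8 in C26 against CT, 0 in C26-TDCA against C26 and 6 in C26-TDCA against CT livers. Same-numbered livers had correlations of -0.20 to 0.34 in 20 pairs, of which 6 were over 0.1. In 5 of these pairs the own number was the best match. Such values cannot tell whether the numbers pair the mice. Over all genes, C26-TDCA against C26 livers gave 291 calls, 45 with a fit on the 2 groups compared, 17 with the length and GC trend removed and 551 with DESeq2. Among the other lists, DESeq2 called 5 T and NK cell markers lower in C26 and in C26-TDCA than in CT livers (3 in edgeR) and 3 B cell markers lower in C26 than in CT livers (1 in edgeR). Upper-quartile scaling called 1 gene of the upstream cytokines higher in C26 than in CT livers (0 in the reported fit). Gbp9 in C26-TDCA against CT livers was lost without CT 01 (adjusted p = 0.0547) or CT 06 (adjusted p = 0.0515). Tgtp1 (26 to 116 counts a library) and Gbp6 (16 to 89) rest on few reads.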

Other observations

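GBP and IRG proteins reach vacuoles through lipid tails and the ATG8 system of autophagy. Of 16 genes of ATG8 and its conjugation tested, 4 were higher and 6 were lower in C26 than in CT livers, with a median log2 fold change of -0.09. These counts lie near the background of 28.9% higher and 29.2% lower over all genes. Gabarapl1, an ATG8 protein, averaged 123.6 ± 19.8 CPM in C26 livers and 310.4 ± 18.4 CPM in CT livers (log2 fold change -1.33, SE 0.09, adjusted p = 8.92e-12 in edgeR's test). Map1lc3b, another ATG8 protein, averaged 228.2 ± 28.2 CPM in C26 livers and 108.4 ± 11.8 CPM in CT livers (1.07, SE 0.10, adjusted p = 1.96e-09). Gabarapl2 fell by 0.48 (SE 0.09, adjusted p = 3.98e-05) and Atg3, a conjugating enzyme, by 0.45 (SE 0.08, adjusted p = 2.25e-05) on the log2 scale.

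Of 8 prenylation genes, 3 were higher and 1 was lower in C26 than in CT livers, also beside 28.9% and 29.2% of all genes. Rce1, the protease that trims prenylated tails, rose by 1.03 on the log2 scale (SE 0.10, adjusted p = 7.22e-09), and Icmt, which methylates them, fell by 0.27 (SE 0.07, adjusted p = 0.00159). Of 12 genes of inflammasomes and pyroptosis, in which GBP proteins take part, 7 were higher and 0 were lower in C26 livers, beside the same shares. Casp4, the caspase that senses lipopolysaccharide, averaged 3.003 ± 0.83 CPM in C26 livers and 1.22 ± 0.37 CPM in CT livers (1.30, SE 0.19, adjusted p = 3.53e-06). Gsdmd, the pore protein, rose by 0.46 (SE 0.07, adjusted p = 2.17e-06). In C26-TDCA against C26 livers edgeR called 0 genes of these 3 lists. At an unadjusted p under 0.05 there were 0 ATG8 genes, 1 prenylation gene and 3 inflammasome genes, and DESeq2 called 1 of the inflammasome genes lower and 0 of the others.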
